A study of Emiliania huxleyi with 18 samples.

Results

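The oldest cultures of a weak UV experiment on the marine alga Emiliania huxleyi were compared, UV against control on day 13. They gave 6 of the 18 bulk libraries of the series, 3 from UV cultures and 3 from control cultures, chosen by arm and harvest day alone. All groups were axenic cultures of strain CCMP3266, grown as standing cultures of 50 ml from 330 cells per ml at 18 °C, in a cycle of 16 h light (130 µmol photons per m2 per s) to 8 h dark. In UV day 13 cultures a lamp added UV during 14 h of each light period, with intensities in W per m2 of 0.5 (UV-A), 0.07 (UV-B) and 0.026 (UV-C), and control day 13 cultures received the growth light alone. Cultures of the same 2 arms harvested on days 7 and 10, with 3 libraries in each group, are used here only to set the day 13 values in context. The labels place the lamp inside the growth chamber and do not say where control cultures stood, so UV and chamber cannot be told apart. They call the samples triplicates without saying that each came from a separate culture, so p-values measure only the spread between these libraries.

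Emiliania huxleyi is a coccolithophore, a single-celled alga that coats itself with calcite scales and forms large blooms near the sunlit ocean surface. UV-B light joins neighbouring pyrimidine bases in DNA, which cells mend with light-driven photolyases and by excision repair, and it also turns certain sterols into vitamin D, the subject named in the title of the series. In batch culture, nutrients are used up as cells multiply, and cell numbers at harvest were not used here. Which known pathways moved is not described here, because genes carry the authors' identifiers, which the files do not pair with names, and 0 of them matched the RefSeq gene table for this species. For the same reason the strain was not checked against marker genes. In bulk RNA, a change in the level of a transcript and a change in the share of cells that carry it cannot be told apart.

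Libraries were made by MARS-seq2.0, in which a unique molecular identifier (UMI) tags each captured transcript, so that 1 UMI stands for 1 molecule. UMI totals were 3301281 to 4797836 in the UV day 13 libraries and 5274045 to 6426803 in the control day 13 libraries, so every UV library was shallower than every control library. UMIs per read also separated the arms, at 0.789 to 0.795 under UV and 0.770 to 0.784 in control. Levels are given as CPM, the count of a gene relative to the library total after TMM scaling. When the 6 libraries were thinned to 3301281 UMIs each, 22077 ± 191 genes were detected under UV and 22048 ± 59.3 in control (SD, n = 3 each), with an exact two-sided permutation p of 0.9, where 3 against 3 libraries cannot go below 0.1. The scatter between replicates, as a biological coefficient of variation over all genes tested, was 0.0927 in UV day 13 and 0.0882 in control day 13.

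On day 13 most genes that changed were higher under UV. Of 18196 genes tested, 351 (1.93%) passed an adjusted p of 0.05 in edgeR's quasi-likelihood test. Of these, 281 (1.54%) were higher and 70 (0.385%) were lower, while the median log2 fold change over all genes tested was -0.00. Before adjustment, 2150 genes (11.8%) had a p under 0.05. Most changes were modest: 96 of the 281 higher genes moved less than 1.5-fold, 101 between 1.5-fold and 2-fold, 70 between 2-fold and 4-fold and 14 by 4-fold or more. Of the 70 lower genes the same classes held 28, 20, 20 and 2. The middle 50% of the absolute log2 fold changes ran 0.55 to 1.11 among higher genes and 0.50 to 1.16 among lower genes. The 3 UV libraries all stood above the 3 control libraries in 276 of the 281 higher genes, against 1734 (9.53%) of all genes tested. They all stood below in 68 of the 70 lower genes, against 1458 (8.01%) of all genes tested. Both lists were called from these same libraries, so this separation follows largely from the call and adds no support to it. The arms differed in depth, and with the day 13 libraries thinned to equal depth 280 genes passed, 227 higher and 53 lower.

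**Figure D1:**
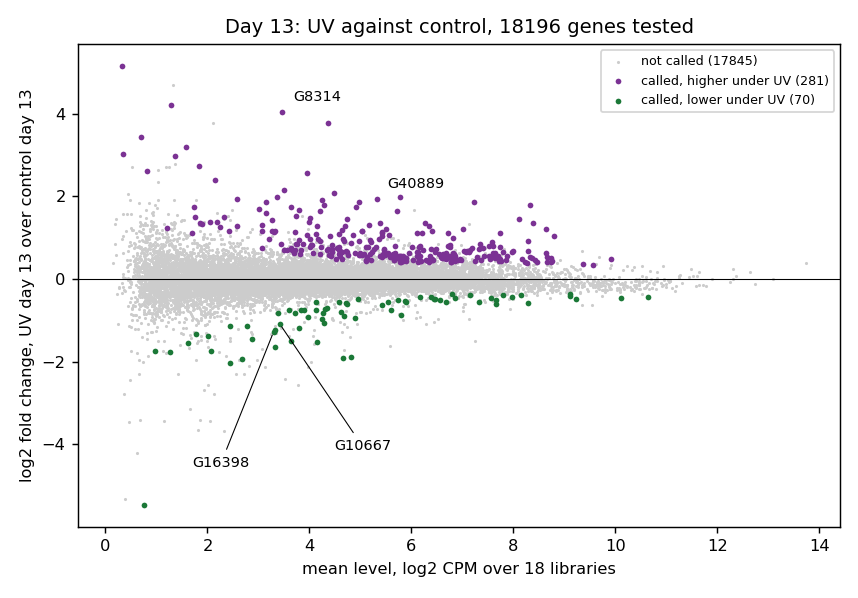
Each point is a gene, with its mean log2 CPM over the 18 libraries on the horizontal axis and its log2 fold change of UV day 13 over control day 13 on the vertical axis. Purple points are the 281 genes called higher, green points the 70 called lower and grey points the other genes tested, and called genes lie closer to the zero line at higher levels.

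The level of a gene set how small a change could be called. Among genes with a mean of over 50 CPM in the day 13 libraries, 129 of 3556 were called (3.63%, exact 95% binomial interval 3.04 to 4.30), 103 higher and 26 lower, with a median absolute log2 fold change of 0.52. Among genes at 5 to 50 CPM, 190 of 11227 were called (1.69%, interval 1.46 to 1.95), 156 higher and 34 lower, with a median of 0.78. Under 5 CPM, 32 of 3413 were called (0.938%, interval 0.642 to 1.32), 22 higher and 10 lower, and their median was 1.73. The median standard error of the log2 fold change over all genes in these classes was 0.11, 0.16 and 0.39, from the highest level to the lowest. Higher genes outnumbered lower genes in each of the 3 classes. The intervals treat genes as independent and do not cover the spread between libraries. With 1 library left out, the count of calls over all classes lay between 129 and 445.

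The rise with the lowest adjusted p was that of G8314, whose function the files do not give. It stood at 46.6, 66.2 and 51.2 CPM in UV day 13 replicates 1 to 3, from 169, 368 and 210 UMIs, against 3.85, 2.21 and 3.76 CPM in control day 13, from 22, 13 and 28 UMIs. The lowest UV library was above the highest control library by a wide margin, and control libraries were low but not empty. The log2 fold change was 4.05 ± 0.20 (SE, edgeR adjusted p = 1.38e-15). On day 7 G8314 held 0 UMIs in all UV libraries and 1 UMI over the control libraries. On day 10 it held 27 UMIs over the UV libraries, at 4.10, 4.21 and 2.38 CPM, and 0 over the control libraries, which is at least 10.2-fold higher under UV when 3 UMIs over the control libraries are taken as the floor. That bound covers counting error only. G8314 was thus seen under UV on day 10 and in both arms on day 13, with the UV libraries above.

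G40889 was the second gene named among the rises. Its level was 150, 172 and 150 CPM in UV day 13 replicates 1 to 3, against 47.6, 34.8 and 40.9 CPM in control day 13, with a log2 fold change of 1.94 ± 0.12 (SE, edgeR adjusted p = 1.98e-14). The UV libraries lay close together and far above control. The gene was already higher under UV on earlier days, at 3.73 ± 0.511 CPM in UV and 0.702 ± 0.0745 CPM in control on day 7, and at 16.7 ± 2.18 CPM in UV and 1.91 ± 1.71 CPM in control on day 10 (SD, n = 3 each). The log2 fold change was 2.30 ± 0.40 on day 7 and 2.83 ± 0.29 on day 10 (SE), with edgeR adjusted p of 0.00216 and 9.55e-08. In control replicates 1 to 3 the gene held only 4, 3 and 5 UMIs on day 7 and 0, 5 and 18 UMIs on day 10. Its log2 difference between arms on day 13 less that of day 7 was -0.36 ± 0.42 (SE), and less that of day 10 it was -0.90 ± 0.34 (SE), with edgeR adjusted p of 0.843 and 0.2. G40889 had a higher mean CPM at each later harvest in both arms, with UV above control each time.

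G10667 was lower under UV. It stood at 20.9, 8.82 and 17.6 CPM in UV day 13 replicates 1 to 3, against 33.9, 31.9 and 31.1 CPM in control day 13. The control libraries were nearly level, and UV replicate 2 was the lowest library. The log2 fold change was -1.08 ± 0.18 (SE, edgeR adjusted p = 0.000245), and it was -0.75 when UV replicate 2 was left out (edgeR adjusted p = 0.0134). On days 7 and 10 the gene was near 1 CPM in both arms, at 0.862 ± 0.123 and 1.55 ± 0.394 CPM in UV and 0.987 ± 0.364 and 1.39 ± 0.345 CPM in control (SD, n = 3 each).

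G16398 was the other fall named. Its level was 4.96, 9.54 and 6.59 CPM in UV day 13 replicates 1 to 3, against 20.6, 16.0 and 16.5 CPM in control day 13, with a log2 fold change of -1.28 ± 0.23 (SE, edgeR adjusted p = 0.000972). UV day 13 libraries stood in the range of the earlier harvests, and control day 13 libraries stood above every earlier library. On day 7 the means were 5.50 ± 2.25 CPM in UV and 7.39 ± 1.98 CPM in control, and on day 10 they were 4.97 ± 2.15 CPM in UV and 9.26 ± 2.89 CPM in control (SD, n = 3 each). Neither earlier difference passed the threshold, with log2 fold changes of -0.38 and -1.04 and edgeR adjusted p of 0.643 and 0.0951. In the authors' deposited table the day 13 log2 fold changes of G8314, G40889, G10667 and G16398 were 4.07, 1.95, -1.04 and -1.29, with adjusted p of 6.07e-42, 7.10e-36, 0.0110 and 0.00180.

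**Figure D2:**
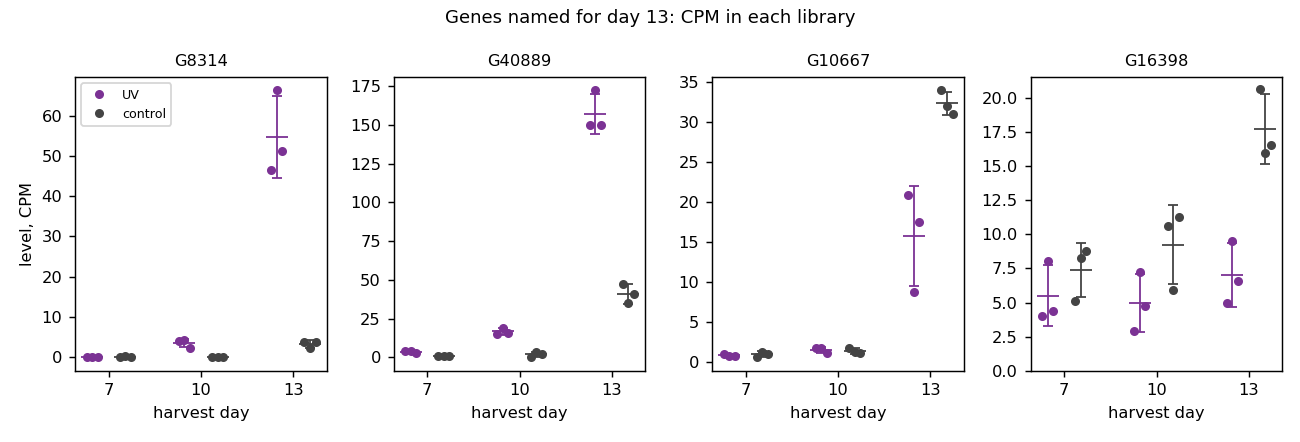
Points are CPM in each library on harvest days 7, 10 and 13, purple for UV and grey for control, with the mean and SD of 3 libraries as a bar and whiskers. G8314 and G40889 stand higher in UV than in control on day 13, and G10667 and G16398 stand lower.

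Summed over genes, the changes touched a small part of the transcript pool. The 281 higher genes held 2.32%, 2.85% and 2.37% of all UMIs in UV day 13 replicates 1 to 3, against 1.5%, 1.49% and 1.8% in control day 13. The 70 lower genes held 0.648%, 0.578% and 0.627% in UV day 13 and 0.873%, 0.905% and 0.821% in control day 13. These values describe genes chosen for this difference and carry no test. The most abundant transcripts weighed about the same in both arms, the 100 highest genes of a library holding 18.0% to 20.5% under UV and 18.0% to 20.6% in control, with an exact two-sided permutation p of 1.0 between arms.

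Within each arm, 1 library leaned further towards the UV side of the difference than its replicates. UV day 13 replicate 2 was the highest UV library in 217 of the 281 higher genes (77.2%), against 36.8% of all genes tested. Control day 13 replicate 3 was the highest control library in 189 of them (67.3%), against 35.4% of all genes tested. Among the 70 lower genes these were also the libraries most often lowest in their arm, UV replicate 2 in 35 and control replicate 3 in 37. Relative to the control mean, the median log2 level of the 281 genes was 0.58, 0.91 and 0.60 in UV replicates 1 to 3, and -0.06, -0.06 and 0.13 in control replicates 1 to 3. The same pair of libraries had the highest scaling factors of their arms, 1.16 each, against 1.10 to 1.11 in the other UV libraries and 1.09 to 1.10 in the other control libraries. They were also the deepest of their arms, at 4797836 and 6426803 UMIs. Their 100 highest genes held 17.97% of UMIs in each, against 20.26% to 20.62% in the other day 13 libraries. The part of this shared lean in the result was not tested, beyond leaving libraries out.

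The count of calls moved in opposite directions when each of these libraries was left out. Without UV day 13 replicate 2 it was 129 genes, 105 higher and 24 lower. Without control day 13 replicate 3 it was 445 genes, 339 higher and 106 lower. With both UV replicate 2 and control replicate 3 left out, an alternative chosen after seeing the data, 174 genes passed, 133 higher and 41 lower, of which 143 were among the 351. The count was 194 and 156 without control replicate 1 and replicate 2. G8314, G40889, G10667 and G16398 passed with any 1 day 13 library left out.

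The first principal component of log2 CPM in the 6 libraries held 33.9% of their variance and separated the arms. UV day 13 replicates 1 to 3 scored 13.1, 29.1 and 13.6, and control day 13 replicates 1 to 3 scored -22.2, -25.3 and -8.31. The arms did not overlap, with UV replicate 2 and control replicate 3 displaced in the same direction. Libraries of the earlier days, which did not enter the component, were then projected on it. On day 7 they scored 11.5 to 12.8 under UV and 12.2 to 15.8 in control, and on day 10 they scored 5.98 to 13.4 under UV and 8.25 to 9.75 in control. The component was centred on and fitted to the 6 day 13 libraries, with its sign set so that UV replicate 1 was positive. With the arms separated on it, control day 13 libraries thus had to lie on the negative side on average. Earlier libraries all scored above 0, whatever their arm, but were not fitted. Their scores are therefore not on a par with those of day 13, and no conclusion is drawn from setting them against each other. Between replicates, correlations of log2 CPM across genes were 0.979 to 0.981 within UV day 13 and 0.984 to 0.985 within control day 13, and between the arms they were 0.972 to 0.982. Such correlations run across genes, which do not count as replicates.

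**Figure D3:**
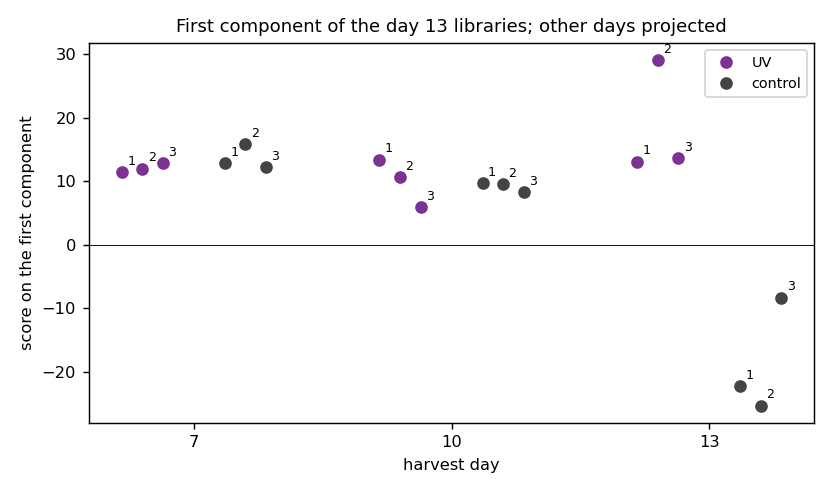
The vertical axis is the score of each library on the first component of the 6 day 13 libraries, with replicate numbers beside the points and harvest day along the horizontal axis, UV in purple and control in grey. Control day 13 libraries score -25.3 to -8.31, and all other libraries score above 0. The component was centred on and fitted to the day 13 libraries, so their scores are not on a par with those of other days.

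The levels on days 7 and 10 of the genes called on day 13 did not enter their day 13 fold changes. All 18 libraries did enter the low-count filter and the estimate of each gene's spread. The 281 higher genes had median levels of 47.1, 52.4 and 50.8 CPM in UV day 7 and 53.4, 54.1 and 52.6 CPM in control day 7. On day 10 the medians were 43.9, 41.5 and 41.0 CPM in UV and 38.8, 40.3 and 40.1 CPM in control. On day 13 they were 38.3, 46.8 and 39.0 CPM in UV and 24.3, 24.5 and 29.2 CPM in control. The control day 13 medians were the lowest of the 18 libraries. As the day 13 difference chose these genes, the day 13 medians carry no test. Which arm moved from its day 10 level was not tested. Over all genes tested the median stayed between 18.0 and 19.3 CPM in every library.

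The 70 lower genes followed another course. Their medians were 31.0, 36.4 and 34.3 CPM in UV and 36.1, 35.8 and 36.8 CPM in control on day 7, and 16.7, 18.0 and 16.3 CPM in UV and 15.4, 20.8 and 21.6 CPM in control on day 10. On day 13 they were 17.4, 14.8 and 16.8 CPM in UV and 28.1, 31.4 and 26.8 CPM in control. The day 13 difference chose these genes as well, and their day 13 medians were not tested against those of day 10. A median does not show the course of each gene, and G10667 had a higher mean on day 13 than on day 10 in both arms.

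**Figure D4:**
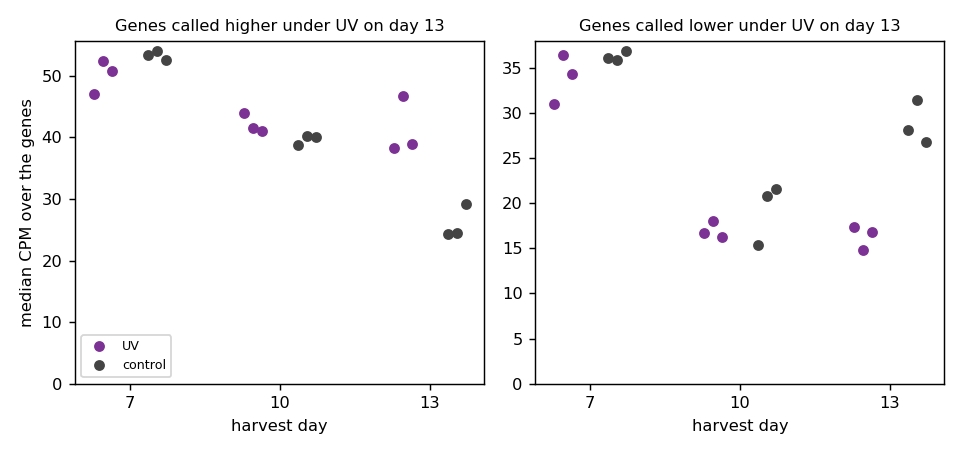
Points are the median CPM over the 281 genes called higher (left) and the 70 genes called lower (right) under UV on day 13, in each of the 18 libraries by harvest day, with UV in purple and control in grey. The day 13 points of the arms are apart in each panel, on the day whose difference chose the genes.

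Change with culture age before day 13 was read from days 7 and 10, which share no library with the day 13 difference. The estimate of each gene's spread was shared, so genes of low spread were easier to call in either comparison. Between these days 143 of the 281 higher genes (50.9%) fell and 57 (20.3%) rose in control cultures by edgeR at an adjusted p of 0.05, against 20.4% and 15.2% of all genes tested. Their median log2 fold change of day 10 over day 7 was -0.51 in control, and -0.00 over all genes tested. In UV cultures 137 (48.8%) of them fell and 80 (28.5%) rose, against 19.8% and 18.2% of all genes tested. The median log2 fold change of the 281 in UV cultures was -0.26, and 0.03 over all genes tested. Of the 70 lower genes, 31 (44.3%) fell and 3 (4.29%) rose in control cultures, and 31 (44.3%) fell and 2 (2.86%) rose in UV cultures. Both lists thus held a larger share of early-falling genes than the table as a whole, whatever their direction on day 13. The 281 higher genes also held a larger share of early-rising genes, and the 70 lower genes a smaller one. The median CPM of the 281 higher genes was above that of all genes tested in every library, while that of the 70 lower genes was above it in some libraries and below it in others. The part of level and of spread in these shares was not tested.

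The UV difference of these genes on earlier days rests on other libraries, but the spread of each gene was estimated over all 18 libraries together. Genes of low spread were thus easier to call on every day, and the part of this in the shares below was not tested. The difference was called in a minority of the genes, yet among the 281 higher genes in a larger share than among all genes tested. Of the 281 higher genes, 180 were called on neither earlier day, a count that was not made over all genes tested. Few of all genes tested were called on either day, so being called on neither is common to the table as a whole. On day 7, 10 of the 281 (3.56%) were higher and 40 (14.2%) lower under UV, against 0.198% and 1.72% of all genes tested. On day 10, 36 (12.8%) were higher and 48 (17.1%) lower, against 0.648% and 1.88%. By sign alone, 155 (55.2%) were lower under UV on both earlier days and 86 (30.6%) higher on both, against 31.7% and 28.9% of all genes tested. Of the 70 lower genes, 65 were called on neither earlier day, as were most of all genes tested. Of the 70, 0 were called higher on either day, against 0.198% (day 7) and 0.648% (day 10) of all genes tested. On day 7, 2 of the 70 (2.86%) were also lower, and on day 10, 4 (5.71%), against 1.72% and 1.88% of all genes tested. By sign, 41 of the 70 (58.6%) were lower on both earlier days, against 31.7% of all genes tested. Over all 18196 genes tested, 34 were called on all 3 days. Of these, 10 were higher throughout, 1 was lower throughout and 23 were lower on days 7 and 10 and higher on day 13.

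Whether the UV difference itself differed between harvests was tested directly. Between day 13 and day 7 it differed in 608 of 18196 genes (3.34%) in edgeR's quasi-likelihood test, with a more positive difference on day 13 in 579 (3.18%) and a more negative one in 29 (0.159%). Between day 13 and day 10 it differed in 467 genes (2.57%), more positive on day 13 in 414 (2.28%) and more negative in 53 (0.291%). These tests use the same day 13 libraries as the comparison above and are not independent of it. Thinning libraries to equal depth leaves fewer UMIs per gene and fewer genes to test. With it, 225 genes passed for days 13 and 7, of which 218 were more positive. For days 13 and 10, 187 passed, of which 177 were more positive. Under total-count scaling 307 genes passed for days 13 and 7, 251 more positive (81.8%, against 95.2%) and 56 more negative, with a median over all genes of -0.12 against 0.01. Without UV day 13 replicate 2 the counts were 347 for days 13 and 7 and 259 for days 13 and 10. Without control day 13 replicate 1 the count for days 13 and 7 was 402, and without UV day 10 replicate 3 that for days 13 and 10 was 296.

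The genes named for days 13 and 7, those of smallest p among the genes eligible, were G9543 and G13865, and both were lower on day 10 than on day 7 in each arm. G9543 held 86.1, 103 and 89.2 CPM in UV and 112, 118 and 115 CPM in control on day 7, and 19.3, 31.2 and 20.5 CPM in UV and 30.0, 36.3 and 33.5 CPM in control on day 10. On day 13 it held 27.3, 39.8 and 25.6 CPM in UV and 9.27, 9.01 and 11.6 CPM in control. UV libraries were below control on day 7 and above it on day 13, with no overlap on either day, though only the day 13 difference passed the threshold (log2 fold change -0.29 on day 7 and 1.64 on day 13, edgeR adjusted p 0.264 and 1.23e-08). From day 7 to day 10 its log2 fold change was -2.04 in UV and -1.78 in control (edgeR adjusted p 1.53e-12 and 8.25e-12). The UV-minus-control log2 difference of day 13 exceeded that of day 7 by 1.94 ± 0.21 (SE, edgeR adjusted p = 4.90e-07).

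G13865 was lower under UV on day 7 and higher on day 13, with log2 fold changes of -0.69 and 2.57 (edgeR adjusted p 0.0104 and 4.84e-06). On day 10 it was also lower under UV, with a log2 fold change of -1.52 (edgeR adjusted p 0.00248). Between days 7 and 10 it fell by 2.63 in UV and by 1.81 in control on the log2 scale (edgeR adjusted p 1.24e-10 and 9.08e-10). It held 24.1 ± 1.24 CPM in UV and 39.9 ± 6.23 CPM in control on day 7, 4.68 ± 1.93 CPM in UV and 11.1 ± 0.480 CPM in control on day 10, and 5.86 ± 1.91 CPM in UV and 0.988 ± 0.256 CPM in control on day 13 (SD, n = 3 each). On day 13 this was 20, 44 and 17 UMIs in UV replicates 1 to 3 and 4, 7 and 8 UMIs in control replicates 1 to 3. The UV-minus-control log2 difference of day 13 exceeded that of day 7 by 3.26 ± 0.37 (SE, edgeR adjusted p = 1.14e-06).

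The genes named for days 13 and 10 were G11431 and G28849. G11431 held 224 ± 14.2 CPM in UV and 333 ± 67.1 CPM in control on day 7, 53.7 ± 3.71 CPM in UV and 116 ± 16.5 CPM in control on day 10, and 25.9 ± 8.01 CPM in UV and 11.3 ± 1.97 CPM in control on day 13 (SD, n = 3 each). Its mean was lower at each later harvest in both arms. UV was below control on day 10 and above it on day 13, with log2 fold changes of -1.15 and 1.21 (edgeR adjusted p 0.000252 and 0.000444). The UV-minus-control log2 difference of day 13 exceeded that of day 10 by 2.36 ± 0.26 (SE, edgeR adjusted p = 3.86e-06). G28849 held 61.1 ± 1.71 CPM in UV and 129 ± 23.0 CPM in control on day 7, 31.6 ± 0.406 CPM in UV and 58.5 ± 14.7 CPM in control on day 10, and 33.0 ± 10.4 CPM in UV and 8.39 ± 2.29 CPM in control on day 13 (SD, n = 3 each). UV was below control on day 10 and above it on day 13, with log2 fold changes of -0.97 and 1.98 (edgeR adjusted p 0.0144 and 1.21e-05). The UV-minus-control log2 difference of day 13 exceeded that of day 10 by 2.94 ± 0.31 (SE, edgeR adjusted p = 1.46e-05).

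**Figure D5:**
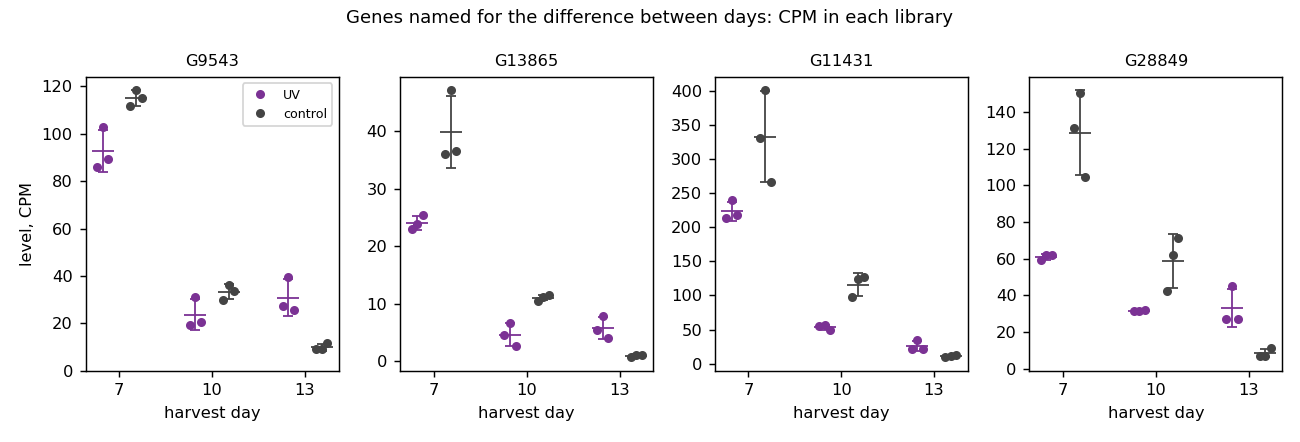
Points are CPM in each library on harvest days 7, 10 and 13 for genes whose UV-minus-control difference was more positive on day 13, purple for UV and grey for control, with mean and SD of 3 libraries. Each gene is lower in UV than in control on day 7 by its mean and higher in UV on day 13.

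Genes whose UV difference was more negative on day 13 were fewer, and day 13 was not the day that stood apart in all of them. G25106 held 16.7 ± 0.661 CPM in UV and 7.38 ± 2.38 CPM in control on day 7, and 7.85 ± 1.52 CPM in UV and 9.18 ± 0.565 CPM in control on day 13 (SD, n = 3 each). Its UV-minus-control log2 difference, day 13 less day 7, came to -1.42 ± 0.33 (SE, edgeR adjusted p = 0.00734), and on day 13 alone it was -0.22 with an edgeR adjusted p of 0.817. At equal depth the difference between days was -1.09 and the call was lost (edgeR adjusted p 0.595). G32096 was lower under UV on day 13 itself, at 6.06, 4.86 and 6.83 CPM in UV against 11.2, 10.4 and 9.55 CPM in control. The log2 fold change was -0.82 ± 0.21 (SE, edgeR adjusted p = 0.0224). The gene had already fallen from day 7 to day 10 in both arms, with log2 fold changes of -1.35 in UV and -1.29 in control (edgeR adjusted p 5.67e-08 and 2e-07). Its UV-minus-control log2 difference, day 13 less day 7, was -1.05 ± 0.25 (SE, edgeR adjusted p = 0.00845). That call was lost without UV day 13 replicate 2, where the value was -0.90 (edgeR adjusted p 0.0858), and at equal depth, where it was -0.80 (edgeR adjusted p 0.647).

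The pair of genes more negative on day 13 than on day 10 differed between the arms on day 10, and no difference was detected on day 13 (edgeR adjusted p 0.898 and 0.58). G39390 held 34.8 ± 3.04 CPM in UV and 16.6 ± 6.23 CPM in control on day 10, and 30.6 ± 3.89 CPM in UV and 28.6 ± 3.91 CPM in control on day 13 (SD, n = 3 each). Its UV-minus-control log2 difference, day 13 less day 10, came to -1.10 ± 0.23 (SE, edgeR adjusted p = 0.00365), which became 0.107 without control day 10 replicate 3 and 0.217 at equal depth. G34911 held 194 ± 35.7 CPM in UV and 99.8 ± 17.9 CPM in control on day 10, and 120 ± 24.9 CPM in UV and 143 ± 9.11 CPM in control on day 13 (SD, n = 3 each). Its UV-minus-control log2 difference, day 13 less day 10, came to -1.16 ± 0.23 (SE, edgeR adjusted p = 0.00436). Day 10 libraries of replicates 1 and 2 were shallower than replicate 3 in both arms and held more UMIs per read, 0.870 to 0.876 against 0.707 to 0.716. Within replicates 1 and 2 of day 10 the day 13 to day 10 test gave 189 genes, 158 more positive. Replicate 3 alone leaves 1 library per arm on day 10, so no count is given for it. The edgeR adjusted p of G39390 was 0.112 within replicates 1 and 2. For G34911 the log2 difference within replicate 3 was -0.67.

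At equal depth no gene was found to be present in 1 arm and absent from the other on day 13, by a rule of 3 UMIs. Under that rule, 0 genes had at least 3 UMIs in every UV library and 0 in every control library, and 0 genes had the reverse. With a minimum of 1 UMI, 55 genes were detected in every UV library and in no control library, and 59 in every control library and in no UV library, with 275 and 261 UMIs over all these genes. Of the 351 called genes, 22 shared the authors' second identifier with another gene, so that their reads could be divided between entries. A pair of such identifiers held more than 1 called gene, 4 genes in all, and in each of the 2 the called genes had the same direction. None of the genes named here shares its second identifier.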

How the data were processed

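The authors deposited raw UMI counts and raw read counts for each gene, from MARS-seq2.0 libraries per the labels' protocols. Aligner, counter, genome build and annotation: not given in the sources used here. A deposited table of the authors' DESeq2 comparisons gave log2 fold changes and adjusted p-values for day 13, per the file headers.

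UMI counts of all 18 libraries were fitted together with 1 mean per group in edgeR 4.0.16 (R 4.3.3), with TMM scaling, filterByExpr (minimum count 10, minimum total 15) and robust quasi-likelihood F-tests, adjusted by the Benjamini-Hochberg method over the 18196 of 41734 genes kept. All edgeR p-values are two-sided. Standard errors are the log2 fold change divided by the square root of F. Log2 CPM used a prior count of 2. The pipeline was also run on simulated counts, drawn independently for each library. Such data hold no lean shared between libraries, so that run does not bear on it. Alternatives used limma 3.58.1, DESeq2 1.42.0, other scalings, filters, depths and sets of libraries.

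The members and lists were chosen with earlier results of these data known. Named genes were the 2 higher and 2 lower with the smallest p in each comparison, with a mean of at least 50 UMIs over the libraries compared and an unshared second identifier. For day 13 they also had to change at least 2-fold, with the arms not overlapping. Genes already named were passed over. Gene lists by function were not run, since identifiers have no names. Intervals, thinned values and the floor of 3 UMIs cover counting error only.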

Additional observations from a re-analysis of the deposited data

Results flagged for a closer look

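The UV difference on day 13 differed from that on day 7 in 608 genes and from that on day 10 in 467 genes, by edgeR's test of the difference itself. Among the genes named for days 13 and 7, the difference was 1.94 for G9543, 3.26 for G13865, -1.42 for G25106 and -1.05 for G32096 on the log2 scale. Among those named for days 13 and 10, it was 2.36 for G11431, 2.94 for G28849, -1.10 for G39390 and -1.16 for G34911. No cause of these differences was tested.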

How the results depend on the processing

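The count of 351 genes on day 13 lay between 268 and 473 with other scalings, a stricter filter, only the day 13 libraries, DESeq2, read counts, limma-voom, equal depth and the replicate block, and was 592 without a low-count filter. Leaving the unfiltered fit aside, these settings called again between 238 of the 351 genes (DESeq2, which tested 8788 genes) and 346 (replicate block). The count was 129 to 445 when 1 library was left out, and 174 without UV replicate 2 and control replicate 3. More genes were higher than lower in every one of these settings. The replicate block gave 473 genes on day 13, 723 for days 13 and 7 and 578 for days 13 and 10. Deviations of same-numbered UV and control libraries correlated at 0.025, 0.048 and -0.008 on day 7, at 0.048, 0.031 and 0.23 on day 10 and at 0.078, 0.002 and -0.064 on day 13, so the numbers were not taken as pairs. On day 10 the number follows the split in UMIs per read between replicates 1 and 2 and replicate 3. On day 13, 1 of 3 UV libraries correlated best with its own number. The highest of the 9 correlations on day 13, 0.126, joined UV replicate 2 and control replicate 3. For days 13 and 7 the count was 307 under total-count scaling, 225 at equal depth and 347 to 717 with 1 library left out. For days 13 and 10 it was 187 at equal depth, 189 with only day 10 replicates 1 and 2, and 259 to 570 with 1 library left out. Equal depth there means thinning to the shallowest library, which leaves fewer UMIs per gene and fewer genes to test.

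Of 241 recalculations for the 12 named genes, 234 kept direction and call and 0 reversed. The other 7 lost the call, all among genes with a more negative UV difference on day 13. The loss for G34911 came in the fit on day 10 replicate 3 alone, with 1 library per arm on that day. Adjusted p ranged over alternatives (edgeR, limma or DESeq2) from 2.47e-08 to 0.0432 for G10667, 6.43e-08 to 0.0110 for G16398, 0.000119 to 0.595 for G25106, 0.00262 to 0.647 for G32096 and 0.000166 to 0.217 for G39390. For G34911 it ranged from 3.68e-09 to 0.0215 with that fit left aside. DESeq2 gave no adjusted p for G8314, G10667 or G16398 on day 13, by its own filter on mean counts. Detection in every library of 1 arm and none of the other gave 0 and 0 genes at 3 or 5 UMIs, 55 under UV and 59 in control at 1 UMI, and, in counts as deposited, 0 under UV and 2 in control. With levels taken from day 7, 1.30% of genes at 5 to 50 CPM were called, against 1.69%. The cause of these shifts was not tested.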
